A study of Rattus norvegicus with 12 samples.

Results

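Granzymes, perforin and Nkg7 are the proteins of the killing granule, and 8 of their genes were followed here in the ovary of rats. The set was Gzma, Gzmb, Gzmc, Gzmf, Gzmk, Gzmm, Prf1 and Nkg7, found by name among the 19730 genes of the deposited table, and it was chosen by the FPKM values of Gzmc, which was listed mainly in PCOS libraries. The levels of Gzmc are therefore given as a description and were not tested.

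Cytotoxic lymphocytes, which are natural killer (NK) cells and CD8+ T cells, store these proteins in secretory granules. On contact with a target cell the granule is released, perforin forms pores in the target membrane, and granzymes, a family of serine proteases, enter and cleave proteins inside the cell. The ovary holds resident and recruited leukocytes whose numbers change over the reproductive cycle, and in rodents the granzyme family of the chymase locus is larger than in humans.

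Ovarian RNA from 12 wild type female Sprague Dawley rats at postnatal week 15 was sequenced, 4 rats in each of 3 groups. The control group was untreated and received standard food. The PCOS group, a model of polycystic ovary syndrome, had been given letrozole, an aromatase inhibitor, at 1 mg/kg/day with a high-fat diet for 30 days, and rats entered the model when their vaginal smears stayed in metestrus and diestrus. The PCOS-MV group received the same and then mogroside V, a sweet triterpene glycoside of monk fruit, at 600 mg/kg/day for 30 days. What the PCOS group received in that second period is not given in the sources used here. Levels are FPKM, fragment counts scaled to transcript length and to the mapped fragments of the library, and within a group they are given in the order of replicates 1 to 4. The ovarian markers for granulosa cells, oocytes and luteal or theca cells were detected in all groups, and how many of each were called is given below.

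An FPKM of exactly 0 can be a failed estimate in this table. The ribosomal protein gene Rpl21 on chromosome 12, which every cell uses, stood at 0 in 6 libraries, while the other 6 had 158 to 327 FPKM of it. A level of 0 is therefore called listed at 0, and no fold is given against it. Because whole ovary was sequenced, more cells of a type and more RNA per cell cannot be told apart.

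The promoters are shown for the granzyme genes that were high in PCOS libraries and, for contrast, for Gzmb, which was not. Each sequence is the 250 bases before the gene's start in RefSeq (assembly GRCr8), written in the direction of transcription. Capitals mark TGTGGT or its reverse complement ACCACA, the core letters bound by RUNX factors, which are transcription factors of cytotoxic lymphocytes and of many other cells.
Gzmc, chr15:34440007-34440256, minus strand: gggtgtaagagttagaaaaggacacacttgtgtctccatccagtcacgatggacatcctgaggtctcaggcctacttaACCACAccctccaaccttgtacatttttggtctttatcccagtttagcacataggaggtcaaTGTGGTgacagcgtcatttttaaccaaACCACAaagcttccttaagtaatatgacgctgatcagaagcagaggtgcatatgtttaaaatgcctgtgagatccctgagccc
Gzmf, chr15:33988888-33989137, minus strand: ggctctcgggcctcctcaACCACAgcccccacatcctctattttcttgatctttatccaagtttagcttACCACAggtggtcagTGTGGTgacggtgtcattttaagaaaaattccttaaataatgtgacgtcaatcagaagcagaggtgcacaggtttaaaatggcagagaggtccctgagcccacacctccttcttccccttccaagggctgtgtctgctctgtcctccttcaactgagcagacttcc
Gzma, chr2:46485697-46485946, minus strand: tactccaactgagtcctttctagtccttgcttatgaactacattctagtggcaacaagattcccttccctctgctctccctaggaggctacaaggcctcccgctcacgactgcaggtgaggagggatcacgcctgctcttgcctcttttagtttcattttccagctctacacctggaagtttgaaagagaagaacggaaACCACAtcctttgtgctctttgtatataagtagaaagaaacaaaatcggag
Gzmb, chr15:34462470-34462719, minus strand: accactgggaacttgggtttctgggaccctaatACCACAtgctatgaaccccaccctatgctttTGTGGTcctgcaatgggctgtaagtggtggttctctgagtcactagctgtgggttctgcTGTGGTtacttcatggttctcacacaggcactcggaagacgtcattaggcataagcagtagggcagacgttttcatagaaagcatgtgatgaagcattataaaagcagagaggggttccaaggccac

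The RUNX letters were in the promoters of 8 of the 8 genes, against 14.5% of the 33469 rat promoters of the same length. Gzmb, Gzmc and Gzmf held 3 matches each and the other 5 genes held 1 each. The match did not separate the genes by their levels: Gzmb, Gzmk and Gzmm, which limma called in no comparison below, held it too. The Gzmc and Gzmf promoters had 146 identical bases of 181 aligned (80.7%), whereas in the other pairs of members 55.0% to 68.3% of the aligned bases were identical. This share leaves out the bases set against gaps, and this pair had the fewest aligned. Of the full 250 bases 58.4% were identical in this pair and 48.4% to 55.2% in the others. In the Gzmf promoter the 8 letters TGACGTCA, a cyclic AMP response element present in 1.59% of rat promoters, lay 124 bases before the start. The T-box letters AGGTGT (11.6% of rat promoters) or their reverse complement were in the Gzmf and Gzma promoters. The ETS letters CAGGAA (24.7% of rat promoters) were in those of Prf1, Nkg7 and Gzmk. Of the other motifs searched, AP-1 (TGACTCA, 4.05% of rat promoters) was in that of Gzmb, NFAT (GGAAAA, 21.6%) in that of Gzma and the TATA letters TATAAA (12.9%) in those of Gzmb and Gzmk. All motifs were searched on both strands, and a match is a description of letters and not of a bound factor.

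Gzmc, a granzyme found in rodents and made by activated killer cells, was listed at 0 in 3 control libraries and at 0.0718 FPKM in control replicate 3, on chromosome 15 from base 35392162 to 35394792 on the minus strand. The build of the coordinates of the deposited table is not given in the sources used here. In the PCOS group Gzmc was at 0, 3.73, 5.21 and 6.14 FPKM. After MV it was at 0.552, 0, 0 and 0 FPKM. On these values 3 of the 4 PCOS libraries stood above every other library and PCOS replicate 1 was listed at 0, like most libraries of the other groups. By the estimate below, 1 fragment was worth 0.0308 to 0.0377 FPKM of Gzmc, so that the 3 high PCOS values came from about 113, 138 and 193 fragments and the control value from about 2. RefSeq lists several pseudogenes named after Gzmc, and the authors' counting could split its fragments among similar copies. The level of Gzmc in single libraries is uncertain to that extent.

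Gzmf, a granzyme of the same rodent family, starts 196.4 kb from Gzmc in the coordinates of the deposited table. In the GRCr8 coordinates printed above, the promoters of Gzmf and Gzmc lie further apart than that. The levels of Gzmf were 0 FPKM in all 4 control libraries and 0, 1.27, 0.629 and 0.867 FPKM in the PCOS libraries. In the PCOS-MV libraries it was listed at 0, 0, 0 and 0.0980 FPKM. The same 3 PCOS libraries as for Gzmc were high and the same one was listed at 0. Its mean of 0.239 FPKM lay below the filter of 1 FPKM, so it was compared only by an exact two-sided permutation test, which gave p = 0.143 for PCOS against control and p = 0.143 for PCOS-MV against PCOS. With 4 libraries against 4, this test cannot go below 0.0286.

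**Figure D1:**
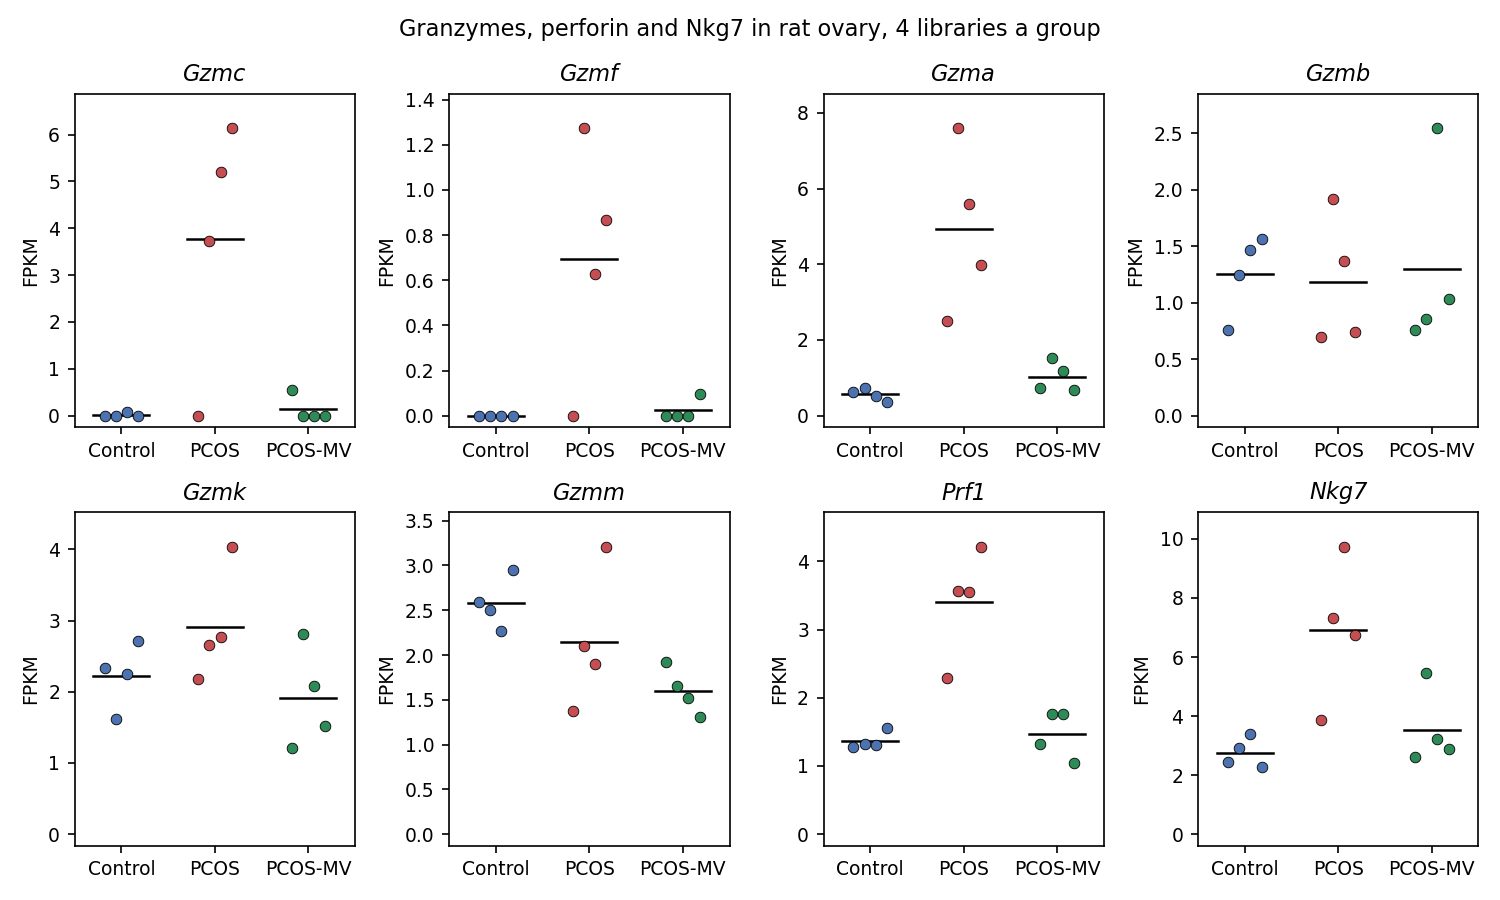
Each panel plots 1 gene, with FPKM on the vertical axis and the 3 groups on the horizontal axis. Points are libraries, 4 in each group in the order of replicates, and bars are group means. Gzma, Prf1 and Nkg7 are higher in every PCOS library than in every control library. Gzmc and Gzmf are above 1 and 0.6 FPKM in PCOS replicates 2 to 4 and at 0 in PCOS replicate 1, and the groups of Gzmb overlap.

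Gzma, a granzyme with trypsin-like specificity, had the largest log2 difference between PCOS and control of the members tested. Its levels were 0.624, 0.734, 0.526 and 0.365 FPKM in the control group. They were 2.51, 7.60, 5.60 and 3.97 FPKM in the PCOS group. They were 0.720, 1.52, 1.17 and 0.689 FPKM in the PCOS-MV group. The PCOS libraries overlapped neither of the other groups, and the mean was 0.562 ± 0.157 in control, 4.92 ± 2.19 in PCOS and 1.03 ± 0.399 in PCOS-MV (SD, n = 4). The ratio of the PCOS to the control mean was 8.75. On the scale of log2(FPKM + 1), which understates the change of low genes, Gzma rose by 1.85 (SE 0.25) in PCOS against control (limma, Benjamini-Hochberg adjusted p = 0.00102). It fell by 1.49 (SE 0.27) in PCOS-MV against PCOS (limma adjusted p = 0.00522). Gzma passed the filter of 1 FPKM through its PCOS libraries, since its mean over the other 8 was 0.794 FPKM. With the filter at 0.1 FPKM, which it passed without them, the limma adjusted p was 0.00134 and 0.00717 in these comparisons. Between PCOS-MV and control the log2 difference was 0.36 (SE 0.17), which did not pass the test (limma adjusted p = 0.602), and the exact permutation p was 0.0857.

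Prf1, which encodes perforin, the pore former, was higher in PCOS and lower after MV as well. It had 1.28, 1.32, 1.31 and 1.56 FPKM in the control group. In the PCOS group it had 2.29, 3.57, 3.56 and 4.22 FPKM. In the PCOS-MV group it had 1.32, 1.76, 1.76 and 1.05 FPKM. Every PCOS library stood above every library of the other groups, and the control and PCOS-MV groups overlapped. The mean of the PCOS group was 2.49 times that of the control group. The log2 difference was 0.88 (SE 0.15, limma adjusted p = 0.00282) for PCOS against control, and Prf1 fell by 0.83 (SE 0.16, limma adjusted p = 0.00767) in PCOS-MV against PCOS. For PCOS-MV against control it was 0.05 (SE 0.13, limma adjusted p = 0.919).

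Nkg7, a membrane protein of cytotoxic granules that is needed for their release, had 2.45, 2.93, 3.40 and 2.26 FPKM in the control group. It had 3.85, 7.33, 9.74 and 6.76 FPKM in the PCOS group. In the PCOS-MV group it had 2.60, 5.46, 3.22 and 2.89 FPKM. PCOS replicate 1 was closest to the control libraries and PCOS-MV replicate 2 reached above it, so that only PCOS and control did not overlap. Nkg7 rose by 1.03 (SE 0.23) on the log2 scale in PCOS against control (limma adjusted p = 0.0101). Its log2 difference of -0.79 (SE 0.26) between PCOS-MV and PCOS did not pass (limma adjusted p = 0.0580, exact permutation p = 0.0571), and without PCOS replicate 1 or without PCOS-MV replicate 2 it did (limma adjusted p = 0.0189 and 0.0296).

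Gzmb, the granzyme that cleaves after aspartate and activates caspases, was not called in any comparison. Its levels were 0.755, 1.25, 1.47 and 1.57 FPKM in control, and 0.694, 1.92, 1.37 and 0.741 FPKM in PCOS. In PCOS-MV they were 0.758, 0.859, 2.55 and 1.03 FPKM. All groups overlapped, and the log2 differences were -0.07 (SE 0.21) for PCOS against control, 0.05 (SE 0.26) for PCOS-MV against PCOS and -0.02 (SE 0.24) for PCOS-MV against control (limma adjusted p = 0.828, 0.907 and 0.986). Gzmb lies 19.0 kb from Gzmc on the same strand. It shares its family with the Gzmb-like genes of the locus, so its fragments too could be split in counting. A missed threshold does not show that the groups were equal.

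Gzmk, a second trypsin-like granzyme, lies 87.5 kb from Gzma on chromosome 2. It had 2.34, 1.62, 2.25 and 2.71 FPKM in control and 2.18, 2.65, 2.77 and 4.04 FPKM in PCOS. In PCOS-MV it had 1.21, 2.81, 2.07 and 1.53 FPKM. The groups overlapped in each comparison. The log2 difference was 0.27 (SE 0.17, limma adjusted p = 0.268) for PCOS against control and -0.44 (SE 0.20, limma adjusted p = 0.139) for PCOS-MV against PCOS. Gzma and Gzmk thus gave different test results from neighbouring places, and the difference between them was not tested.

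Gzmm, a granzyme that cleaves after methionine or leucine, had 2.59, 2.51, 2.27 and 2.95 FPKM in control. It had 1.38, 2.10, 1.90 and 3.21 FPKM in PCOS and 1.92, 1.65, 1.53 and 1.30 FPKM in PCOS-MV. All PCOS-MV libraries were below all control libraries, and the PCOS group overlapped both. The log2 difference of PCOS-MV from control was -0.46 (SE 0.11). Its exact permutation p was 0.0286, the smallest this design can give, and its limma adjusted p was 0.459. The log2 differences were -0.21 (SE 0.17) for PCOS against control and -0.25 (SE 0.17) for PCOS-MV against PCOS (limma adjusted p = 0.385 and 0.317).

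Over the 6 members that were tested with limma, 3 rose and 0 fell in PCOS against control, where 11.9% of the 13430 genes tested were called higher and 15.6% lower. In PCOS-MV against PCOS 0 rose and 2 fell, where 14.3% of all genes tested were called higher and 11.4% lower. Gzma is among both counts and had passed the filter only through PCOS. Over the 5 other members 2 rose in PCOS against control, Prf1 and Nkg7, and 1 fell in PCOS-MV against PCOS, Prf1. These comparisons share the PCOS libraries and are not independent of each other. In PCOS-MV against control 0 members were called by limma, where 0.00745% of all genes were called higher and 0.0% lower. Of the members 1, Gzmm, had an unadjusted p below 0.05, as did 8.5% of all genes tested. The groups did not overlap for 3 members, all higher, in PCOS against control (13.8% of all genes were higher and 17.2% lower without overlap). They did not overlap for 2 members, both lower, in PCOS-MV against PCOS (16.7% of all genes were higher and 13.3% lower without overlap), and for 1, Gzmm, lower in PCOS-MV against control (2.81% higher and 2.29% lower). The median log2 difference of the 6 members was 0.57, -0.61 and 0.02 in the 3 comparisons, beside -0.03, 0.03 and -0.004 over all genes tested. Without Gzma it was 0.27, -0.44 and -0.02. Gzmc passed the filter on its PCOS values alone and was left out of all these counts. Gzmf did not pass it and entered only the counts of overlap, which were made over 7 members. A total of 21 exact permutation tests were run, and their p-values are unadjusted.

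**Figure D2:**
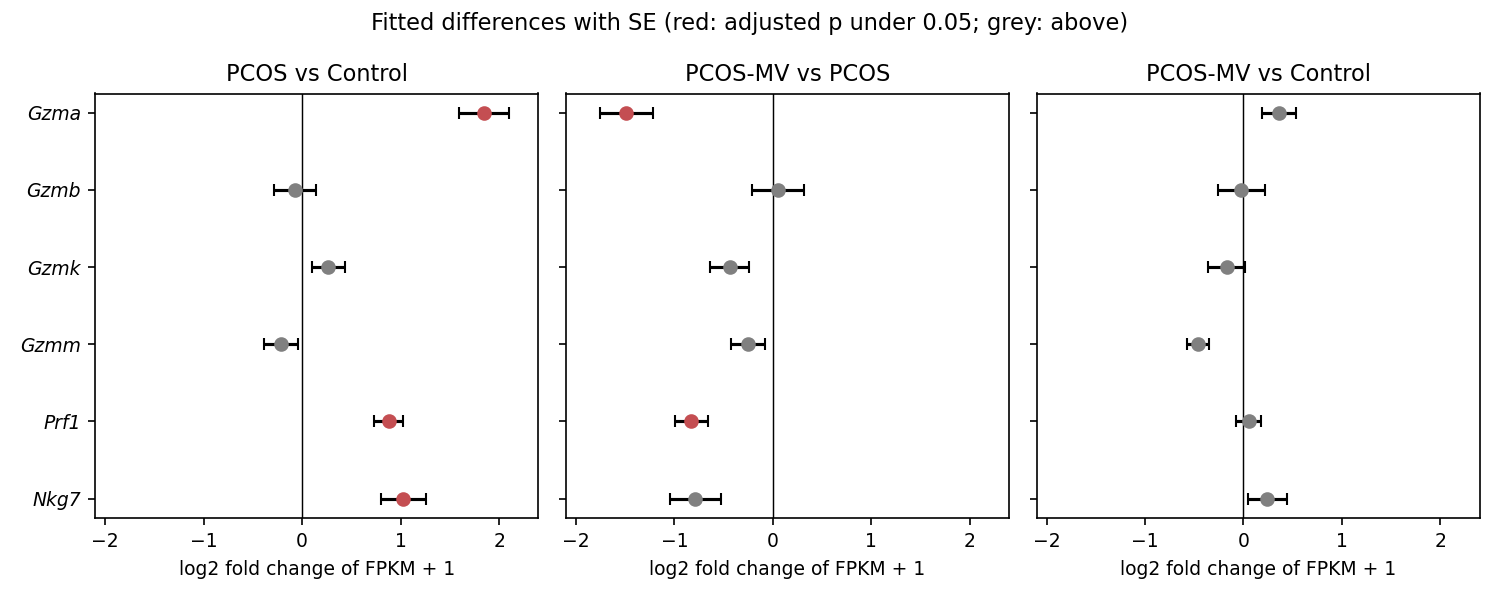
The log2 difference of FPKM + 1 is on the horizontal axis for each of the 6 tested genes, with its SE as the bar, in 1 panel per comparison. Red points passed an adjusted p of 0.05 in limma and grey points did not. Gzma, Prf1 and Nkg7 are to the right of 0 in PCOS against control, and Gzma and Prf1 are to the left of 0 in PCOS-MV against PCOS.

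PCOS replicate 1 was the lowest PCOS library for 8 of the 8 members, Gzmc and Gzmf included. It was the lowest PCOS library for 15.5% of all genes tested. In the other groups no library was the lowest for more than 4 members. Leaving out any library, this one included, changed none of the 3 calls of PCOS against control, and the limma adjusted p then reached 0.00457 at most for Gzma, 0.0119 for Prf1 and 0.0320 for Nkg7.

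Gzmc and Gzmb lie in a cluster of serine protease genes on chromosome 15. Within 500 kb of Gzmc 6 other genes are listed, Mcpt1, Mcpt1l4, LOC691670, Gzmf, LOC100910060 and Gzmb, of which only 1, Gzmb, had a mean of at least 1 FPKM. Between bases 34601037 and 36472346 the table lists 15 genes described as S1A peptidases, of which 3 are members. These were gathered after their values were seen and are described without a test. Of the 12 others, 3 were higher in every PCOS library than in every control library, 2 were lower and 7 overlapped. In PCOS-MV against PCOS 4 were lower without overlap and 8 overlapped. Without overlap, 13.8% of all genes tested were higher and 17.2% lower in PCOS against control. In PCOS-MV against PCOS 16.7% were higher and 13.3% lower. Most of the 12 had low levels, since only 3 had a mean of at least 1 FPKM.

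LOC691695, an S1A peptidase gene at the far end of the cluster, was at 0, 0.0750, 0 and 0 FPKM in control. It was at 2.64, 5.87, 4.94 and 3.43 FPKM in PCOS and at 0.314, 0.458, 0.546 and 0 FPKM in PCOS-MV. Unlike Gzmc, it was above 2 FPKM in PCOS replicate 1 also. The locus overlaps that of Gzmbl2 on the same strand, and fragments there could be assigned to either gene. Mcpt8, whose product is a protease of basophils and mast cells, had 0 to 0.104 FPKM in control, 0.382 to 0.867 in PCOS and 0 to 0.0921 in PCOS-MV. Mcpt1l4, a mast cell protease-like gene, had 0 to 0.0628, 0.455 to 1.32 and 0.0242 to 0.0990 FPKM in the same order, and it overlaps Mcpt1 in the annotation.

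Both genes that were lower in PCOS were chymase genes at the other end. Cma1, the mast cell chymase, had 0.516 to 1.48 FPKM in control, 0.0641 to 0.166 in PCOS and 0.0817 to 0.264 in PCOS-MV. Mcpt1l1 had 2.34 to 4.31, 0.182 to 0.602 and 0.111 to 0.679 FPKM. For both, PCOS and PCOS-MV overlapped and both groups lay below control. Within the cluster, then, neighbouring genes were high in different groups.

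**Figure D3:**
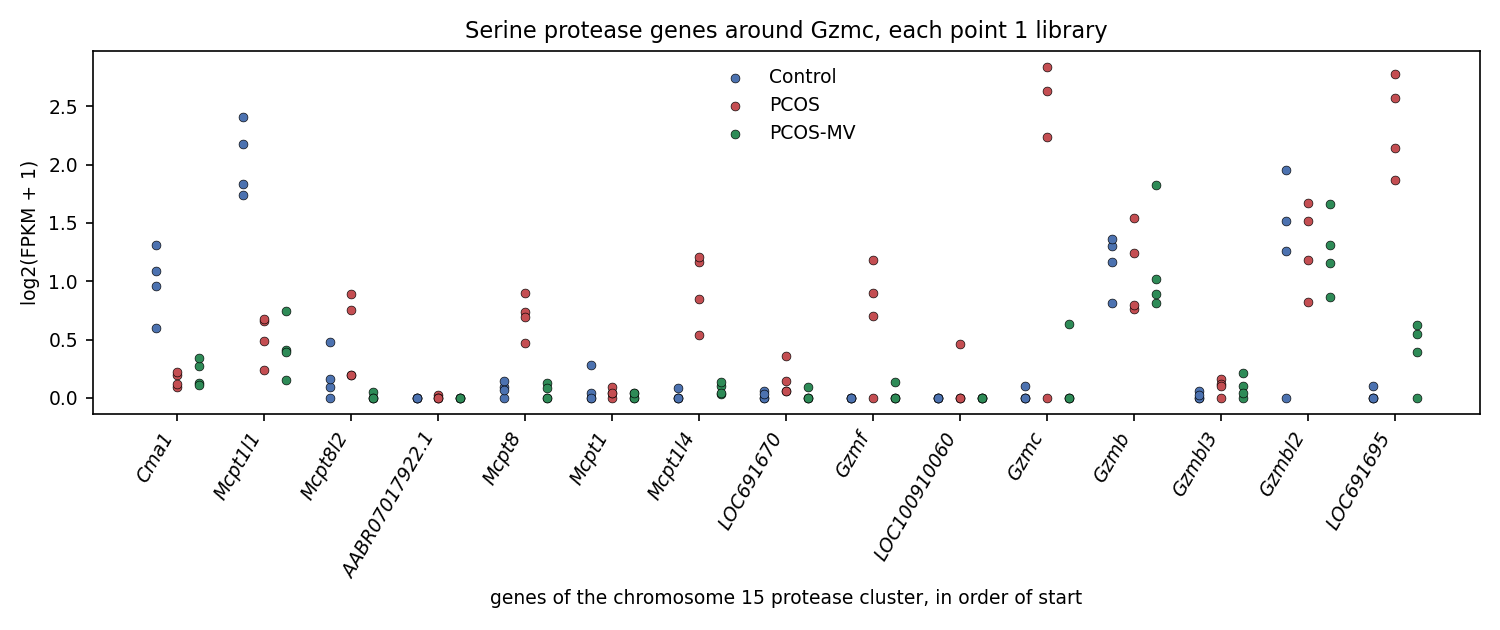
The 15 protease genes are placed in order of their start on the horizontal axis, and log2(FPKM + 1) is on the vertical axis. Each point is 1 library, coloured by group. The PCOS points stand above the others at Mcpt8, Mcpt1l4 and LOC691695, 3 of 4 do so at Gzmf and Gzmc, and control points are the highest at Cma1 and Mcpt1l1.

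The genes most like each member were ranked by the mean absolute difference of standardised log2(FPKM + 1) over the 12 libraries, among 14567 genes. This is a description with no test. Gzma was nearest to LOC691695 (0.144 SD units, with a median of 1.16 over all genes) and next to Xcl1, the lymphotactin chemokine of NK cells and CD8+ T cells. Nkg7 was nearest to Tbx21, which encodes the transcription factor T-bet (0.259 SD units), and to Klrb1b, an NK cell receptor (0.268 SD units). Prf1 was nearest to LOC103694381 (0.227 SD units), followed by B2m, the light chain of class I molecules (0.231 SD units), and Ltb, lymphotoxin beta (0.241 SD units). B2m had 215 to 242 FPKM in control, 456 to 544 in PCOS and 194 to 299 in PCOS-MV. The genes near to Gzmc were of several kinds, among them Rps27, Zbtb48, RGD1564463 and Nol7 (0.227 to 0.323 SD units). Gzmb (Gabpb1, Rnf144a, Ddit4l), Gzmk (AABR07000046.1, Smim31, AABR07018078.1) and Gzmm (Cnnm4, Acat1, XLOC_106241) had less close neighbours, at 0.367 to 0.483 SD units.

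Several markers of NK cells, which carry these granules, were higher in PCOS, as were Gzma, Prf1 and Nkg7 but not the other members tested. Of 12 NK cell markers 11 were found and 6 tested, of which 4 rose in PCOS against control and 0 fell, and 4 fell in PCOS-MV against PCOS and 0 rose. They were Cd7 (log2 difference 2.65 in PCOS against control, limma adjusted p = 7.86e-05), Xcl1 (2.29, 9.27e-05), Il2rb, the interleukin 2 and 15 receptor beta chain (1.50, 0.000251), and Klrd1, the receptor chain CD94 (0.94, 0.00891). Xcl1 and Klrd1 passed the filter only through PCOS, with means of 0.541 and 0.751 FPKM over the other 8 libraries. Over the 4 markers that passed it without PCOS, 2 rose in PCOS against control and 2 fell in PCOS-MV against PCOS, Cd7 and Il2rb both times. At this filter of 1 FPKM, 11.9% of all genes tested were called higher in PCOS against control and 11.4% lower in PCOS-MV against PCOS. With the filter at 0.1 FPKM, 10 markers passed without PCOS, of which 7 rose in PCOS against control, where 10.4% of the 16636 genes tested were called higher, and 6 fell in PCOS-MV against PCOS, where 10.5% were called lower. The median log2 difference over the 10 was 0.54 and -0.50. Klrk1, the receptor NKG2D, and Cd244 did not pass, with log2 differences of 0.22 and 0.13 in PCOS against control (limma adjusted p = 0.436 and 0.708). The summed level of the 11 found was 10.2 to 12.6 FPKM in control, 28.7 to 53.3 in PCOS and 12.2 to 15.9 in PCOS-MV, and the lowest PCOS sum was that of replicate 1. The largest parts of the PCOS sum were Cd7 (9.95 to 21.1 FPKM), Il2rb (5.88 to 10.1) and Xcl1 (3.76 to 8.16). In control these genes were at 1.38 to 2.32, 1.74 to 2.64 and 0.232 to 0.423 FPKM. The sum without them was not tested. Of the receptors that define NK cells, Klrb1 was listed at 0 in all control libraries, at 0.242 to 0.375 FPKM in PCOS and at 0 to 0.0841 FPKM in PCOS-MV. Ncr1 was at 0.0200 to 0.186, 0.363 to 0.774 and 0.0881 to 0.243 FPKM in the same order. Klrc1, of the same list, was at 0.269 to 0.637, 0.281 to 0.673 and 0.0410 to 0.675 FPKM, and its groups overlapped. These receptors were named after their values were seen. The part of NK cell number in the levels of the members was not tested.

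Of 14 T cell markers found, 11 were tested, of which 4 had an unadjusted p below 0.05 in PCOS against control and 6 in PCOS-MV against PCOS. After adjustment 2 rose in PCOS against control, Cd4 (log2 difference 0.32, limma adjusted p = 0.0277) and Cd2 (0.40, 0.0481), and 2 fell in PCOS-MV against PCOS, Cd4 (-0.48, 0.0255) and the kinase gene Lck (-0.49, 0.0492). The sum of the 14 markers was 43.6 to 49.0 FPKM in control, 53.4 to 63.7 in PCOS and 35.1 to 51.6 in PCOS-MV. The PCOS sum thus overlapped neither of the other groups. Cd4 was its largest part in every library, at 20.71 to 27.49 FPKM in control, 28.92 to 32.23 in PCOS and 16.19 to 24.97 in PCOS-MV. Cd4 by itself therefore separated PCOS from the other groups. The separation of the sum is not shown for the list apart from Cd4, since the sum without it was not tested. The genes Cd3d, Cd3e, Cd3g, Cd8a and Cd8b were not called by limma in PCOS against control. For each of them the PCOS and control libraries overlapped. The mean of Cd4 in control was 24.4 FPKM, beside 1.27, 2.11 and 1.49 for Cd3d, Cd3e and Cd3g. Which cells carried Cd4 was not tested. Of the pan-leukocyte markers 0 of 4 tested were called by limma in any comparison (at an unadjusted p below 0.05 there were 1, 2 and 0), and their sum of 48.3 to 64.1 FPKM in PCOS overlapped the control range of 50.8 to 62.5. Of 8 macrophage markers 2 rose in PCOS against control, Csf1r and Adgre1. In PCOS-MV against PCOS these 2 fell, as Cd4 did, and 2 others rose, Cd68 and C1qb. Beside these T cell and macrophage counts, 11.9% of all genes tested were called higher and 15.6% lower in PCOS against control. In PCOS-MV against PCOS 14.3% were called higher and 11.4% lower. No B cell marker passed the filter, and the only neutrophil marker tested, S100a9, passed it only through PCOS and was not called. With the filter at 0.1 FPKM, 0 of 3 B cell and 0 of 3 neutrophil markers were called by limma in any comparison. The part of these cells in the members' levels was not tested either.

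Of the mast cell markers only Kit passed the filter, a receptor that oocytes and theca cells carry too. It rose by 2.06 on the log2 scale in PCOS against control and fell by 2.26 in PCOS-MV against PCOS (limma adjusted p = 0.000224 and 0.000389), and it made up most of the mast cell sum. Cpa3, mast cell carboxypeptidase, was at 0.578 to 1.52 FPKM in control, at 0.0871 to 0.182 in PCOS and at 0.102 to 0.180 in PCOS-MV. With the filter at 0.1 FPKM, 7 mast cell markers passed without PCOS, of which 1 rose and 3 fell in PCOS against control. In PCOS-MV against PCOS 0 rose and 1 fell. The shares over the 16636 genes tested were 10.4% higher and 13.2% lower in the first comparison, and 12.1% and 10.5% in the second. The mast cell protease genes and Kit therefore did not move one way.

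Markers of the ovary's own cells moved with the groups as well. Of 7 granulosa cell markers 4 rose in PCOS against control and 3 fell in PCOS-MV against PCOS, and their sum was 614 to 852 FPKM in control, 1070.0 to 1506 in PCOS and 603 to 1061 in PCOS-MV. Inha was the largest part of the sum in every library, at 388 to 540 FPKM in control and 676 to 988 in PCOS. Amh and Nr5a2 went the other way in PCOS against control and were not called (log2 differences -0.81 and -0.77, limma adjusted p = 0.0738 and 0.101). Of 5 luteal and theca cell markers 3 rose and 2 fell in PCOS against control, and 1 rose and 3 fell in PCOS-MV against PCOS. The shares over all genes tested were 11.9% higher and 15.6% lower in the first comparison, and 14.3% and 11.4% in the second. Insl3, a hormone of theca cells, had a mean of 5.70 FPKM in control, 1032 in PCOS and 7.89 in PCOS-MV, and Cyp17a1, the androgen-forming enzyme of theca cells, had 34.6, 1190.0 and 37.4. Of 5 oocyte markers 0 were called by limma (at an unadjusted p below 0.05 there were 0, 2 and 0 in the 3 comparisons). The part of these cells in the members' levels was not tested.

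**Figure D4:**
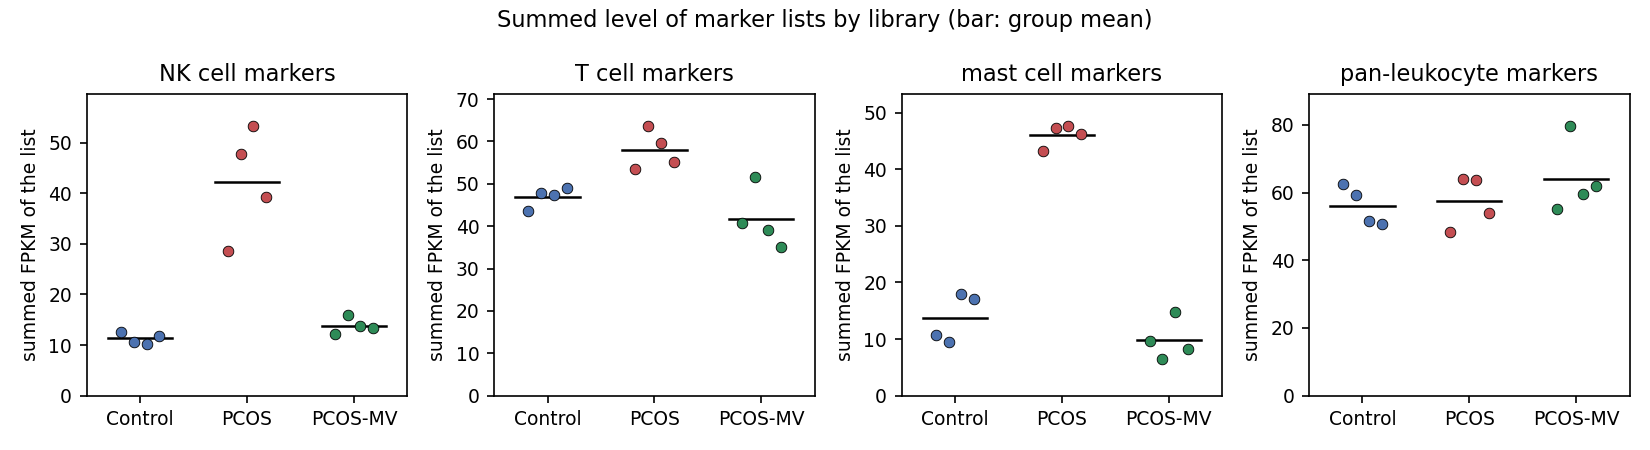
Each panel plots the summed FPKM of a marker list on the vertical axis for the 3 groups on the horizontal axis. Points are libraries and bars are group means. The NK cell sum, of which Cd7 is the largest part in PCOS, separates PCOS (28.7 to 53.3) from control and PCOS-MV. The mast cell sum follows Kit, and the pan-leukocyte sums overlap.

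Most of the other genes of the granule and its release were not called, and the calls went opposite to Gzma and Prf1, with 1 exception. Of 18 listed, 14 were found and 11 tested, of which 1 rose and 3 fell in PCOS against control, and 3 rose and 1 fell in PCOS-MV against PCOS. The single call against the rest was in both comparisons Serpinb9, an inhibitor that is counted again below, and without it 3 fell in PCOS and 3 rose with MV. The median log2 difference was -0.08 and 0.18. Among all genes tested, 11.9% were called higher and 15.6% lower in PCOS against control, and 14.3% and 11.4% in PCOS-MV against PCOS. Ctsc, cathepsin C, which activates granzymes by removing a dipeptide, fell from a mean of 33.6 to 20.7 FPKM in PCOS (log2 difference -0.66, limma adjusted p = 0.00475) and rose by 0.72 with MV (0.00683). Unc13d, the granule priming factor Munc13-4, fell by 1.38 in PCOS (limma adjusted p = 2.12e-05), and after MV it was at 7.31, 2.28, 5.29 and 1.98 FPKM, so that replicates 1 and 3 were near control and the others near PCOS. Stx11, a syntaxin of granule release, fell by 0.53 in PCOS and rose by 1.07 with MV (limma adjusted p = 0.0209 and 0.00249). Stxbp2, its binding partner Munc18-2, rose with MV (log2 difference 0.30, limma adjusted p = 0.0213). These genes are used by many other cells.

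Serpinb9, the inhibitor that protects cells from Gzmb, moved in the other direction. It rose from a mean of 53.1 to 82.3 FPKM in PCOS (log2 difference 0.62, limma adjusted p = 0.0131) and fell to 52.1 with MV (-0.64, 0.0113). Of 18 names listed for inhibitors, uptake and substrates of granzymes, 17 were found, Serpinb9 among them. Serpinb6 was absent and Anp32a had 2 gene entries, so that 18 entries were tested. Of these, 2 rose and 5 fell in PCOS against control, and 4 rose and 1 fell in PCOS-MV against PCOS, with medians of -0.01 and 0.05. For all genes tested it was 11.9% higher and 15.6% lower in the first comparison, and 14.3% and 11.4% in the second. Among these 18 the largest change in PCOS was that of Igf2r, a receptor that takes up Gzmb, which fell by 1.41 in PCOS and rose by 1.55 with MV (limma adjusted p = 2.14e-05 and 1.39e-05). Nme1, a nuclease of the SET complex that Gzma acts on, fell by 0.81 and rose by 1.10 (limma adjusted p = 0.0129 and 0.000194).

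Of 13 tested regulators of cytotoxic genes, 4 rose and 3 fell in PCOS against control, and 1 rose and 3 fell in PCOS-MV against PCOS. Il2rb, already counted as an NK cell marker, is among them. The medians were 0.30 and -0.17. Without Il15ra, which passed the filter only through PCOS, 3 of 12 rose and 3 fell, then 1 rose and 2 fell, with medians of 0.26 and -0.14. Of all genes tested, 11.9% were called higher and 15.6% lower in the first comparison, and 14.3% and 11.4% in the second. Il15ra, the chain that presents interleukin 15 to NK cells, had 0.163 to 0.662 FPKM in control, 2.74 to 3.92 in PCOS and 0.224 to 0.566 in PCOS-MV. It rose by 1.59 and fell by 1.71 on the log2 scale (limma adjusted p = 0.000132 and 0.000105). It passed the filter only through PCOS, with a mean of 0.394 FPKM over the other 8 libraries, and with the filter at 0.1 FPKM, which it passed without PCOS, the limma adjusted p was 0.000134 and 0.000125. Il2rb, its signalling partner on the receiving cell, moved likewise, as given above. The regulators and substrates are named here after their values were seen. Il15 itself fell by 0.46 with MV (limma adjusted p = 0.0247). Zeb2 and Irf8 rose in PCOS, by 0.43 and 0.30 (limma adjusted p = 0.0159 and 0.0448). Id2, a regulator of NK cell development that is also widely expressed in other tissues, fell by 1.53 in PCOS and rose by 1.27 with MV (limma adjusted p = 0.00151 and 0.0100). Prdm1, the repressor Blimp-1, and Il2rg, the common gamma chain, fell by 0.59 and 0.47 in PCOS (limma adjusted p = 0.0414 and 0.0218).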

How the data were processed

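The authors filtered paired-end reads, aligned them and counted fragments per gene. The paper names HISAT2 and featureCounts, while the submitters' processing notes list STAR 2.5.1b and HTSeq 0.6.0. They deposited 1 table of FPKM values with 26928 transcript lines, on which the columns named MG were taken as PCOS-MV, and 1 line per gene was kept. The table also holds the authors' own log2 fold changes and p-values, which were not used. The summed FPKM was 339830 to 373758 per library. Steps between low values put the depth at about 30450000 to 37260000 fragments. Only 36.9% to 40.9% of low values lay on a step within a tolerance of 0.05 of a fragment (10.0% by chance), so no count test was run and depth remains an estimate.

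The 13430 genes whose mean over the 12 libraries was 1 FPKM or more were fitted as log2(FPKM + 1) in limma 3.58.1 (lmFit and eBayes with trend, R 4.3.3), 4 against 4 libraries without a covariate, with Benjamini-Hochberg adjustment over all of them and a threshold of 0.05. For single members an exact permutation test, two-sided, was used (Python 3.11.15). The limma step was tested on simulated data. Tried alternatives were a pseudocount of 0.1, no filter, a mean of at least 0.1 FPKM, 1 model for 12 libraries, median ratio scaling, the replicate number as a block and each library left out. Named genes were the members, the called genes of the granule, NK and T cell lists, the genes within 500 kb of Gzmc and the nearest patterns (5 for Gzmc and 3 for the others), apart from a few results that are not reported here. Genes that passed the filter only through PCOS were also given with the filter at 0.1 FPKM, chosen for them after the data were seen. The protease cluster and the single genes of other lists were added after their values were seen. List symbols were matched exactly. Promoters came from RefSeq, GRCr8, and 8 of 8 members matched. The members and gene lists were chosen with earlier results of these data known.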

Additional observations from a re-analysis of the deposited data

Results flagged for a closer look

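In 5 groups of 4 libraries 1 library of a member stood apart from the rest by Dixon's criterion, which chance meets in about 1 of 20 groups. Gzmb was at 2.55 FPKM in PCOS-MV replicate 3. Prf1 was at 1.56 FPKM in control replicate 4. The other 3 were single values above 0 in groups whose other libraries were all listed at 0, where the criterion is met by construction. They were Gzmc at 0.0718 FPKM in control replicate 3 and at 0.552 FPKM in PCOS-MV replicate 1, and Gzmf at 0.0980 FPKM in PCOS-MV replicate 4.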

How the results depend on the processing

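The counts of members called were 3 in PCOS against control, 2 in PCOS-MV against PCOS and 0 in PCOS-MV against control, and no alternative moved a count by more than 1.5 times. With each library left out in turn they were 3 to 3, 2 to 3 and 0 to 0. For the 6 tested members in 3 comparisons, 106 of 108 other values kept their direction and side of the threshold. The 2 that did not were both Nkg7 in PCOS-MV against PCOS, where 1 model for all 12 libraries gave a limma adjusted p of 0.0315 and the replicate block one of 0.0350. The changed filters, the 1 model and the block leave each log2 difference as it was by construction. There the direction could not change, and only the side of the threshold could. The replicate numbers were not taken as pairs, since same-numbered libraries deviated with correlations of -0.03 to 0.02, 0.04 to 0.17 and -0.05 to 0.22 in the 3 comparisons, all above 0 but not all above 0.1 in PCOS-MV against PCOS, and with the block the counts were 3, 3 and 0. The counts of members past the exact permutation test were 3, 2 and 1, also with a pseudocount of 0.1 and with median ratio scaling, both added after the data were seen. With a library left out, 12 of 144 log2 differences changed sign, none of them past the threshold: Gzmb ranged from -0.23 to 0.037, -0.18 to 0.20 and -0.25 to 0.087 in the 3 comparisons, and Prf1 from -0.0049 to 0.14 in PCOS-MV against control. Depth is only an estimate, and at levels under 1 FPKM a few fragments and the assignment among similar genes set the values.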
